A study of Mus musculus with 9 samples.

Results

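The genes described here encode proteins of the mitochondrial ribosome. They were taken as every gene whose symbol in the array's probe annotation is Mrpl or Mrps followed by a digit, and 76 genes of the 18193 genes named by the array met this rule. By symbol, 47 belong to the large subunit (Mrpl) and 29 to the small subunit (Mrps). Where several probe sets carried the symbol alone, the one with the highest mean log2 intensity stood for the gene, and all 76 had enough signal to be tested among 12652 genes. Mrpl30 and Mrpl53 shared their probe sets with other symbols and were not analysed here.

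The series measured stem and progenitor cells of the marrow in acute myeloid leukemia of the mouse. CD45.1+ LKS+ cells, a sorted fraction of the bone marrow that holds the blood stem cells and early progenitors, were taken from C57BL/6 mice labelled 8 weeks of age and described as normal cells. Of 9 Affymetrix arrays, 3 came from control mice, 3 from leukemic mice at day 7 and 3 from leukemic mice at day 14. The labels give no time for the controls, do not state how the leukemia was induced or what the host's other cells carried, and call the replicates biological without naming animals or sorts, so a p-value here speaks only to how far these samples spread, which may be technical.

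Mitochondrial ribosomes translate the few proteins that mitochondrial DNA encodes, all of them membrane subunits of the respiratory chain and of ATP synthase. All of their proteins are encoded in the nucleus, made in the cytosol and imported, while their ribosomal RNA comes from mitochondrial DNA. The large subunit joins amino acids in its peptidyl transferase region and leads the growing chain out through an exit tunnel. The small subunit binds the messenger RNA and reads its codons. Blood stem cells at rest are known for low use of the respiratory chain, and entry into cycle and differentiation is known to raise it.

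The promoters of members were set side by side because most members moved together. Sequences of 300 bases, 250 before and 50 after the start of the gene, were taken from RefSeq on build GRCm38.p6, which had an entry for 67 of the 76 members and 73 entries for them in all. No fixed rule chose the promoters printed below, and each of them holds a motif that was searched. Other members that fell far at day 14 hold none of these motifs, such as Mrps31 (-0.97), Mrpl41 (-0.95) and Mrps25 (-0.88). The first 3 promoters below belong to members that fell at day 14 (Mrps22, Mrpl17 and Mrps11), and the last 2 (Mrpl32 and Mrpl52) to members that did not pass the test. They lie at chr9:98601630-98601929 (minus strand), chr7:105811038-105811337 (minus strand), chr7:78782881-78783180 (plus strand), chr13:14612988-14613287 (minus strand) and chr14:54426659-54426958 (plus strand). Capitals mark the motifs searched on both strands, which are those of factors known to act on nuclear genes for mitochondria: CCGGAAG for the ETS factors such as GABP, AAGATGG for YY1, the core GCATGC of the NRF1 site and the longer site itself, which is that core with GC before and after it, and CACGTG, the E box that MYC binds.
Mrps22: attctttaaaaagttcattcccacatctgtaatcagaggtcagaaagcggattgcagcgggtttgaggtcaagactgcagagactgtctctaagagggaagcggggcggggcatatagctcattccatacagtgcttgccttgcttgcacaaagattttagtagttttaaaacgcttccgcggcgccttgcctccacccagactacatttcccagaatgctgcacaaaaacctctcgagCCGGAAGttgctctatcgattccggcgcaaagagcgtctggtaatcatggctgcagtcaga
Mrpl17: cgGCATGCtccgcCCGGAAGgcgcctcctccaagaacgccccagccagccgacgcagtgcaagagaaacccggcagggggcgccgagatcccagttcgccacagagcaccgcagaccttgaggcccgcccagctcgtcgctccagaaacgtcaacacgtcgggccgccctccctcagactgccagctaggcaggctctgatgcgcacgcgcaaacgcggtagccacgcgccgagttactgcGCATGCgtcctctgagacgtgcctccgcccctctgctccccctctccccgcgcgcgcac
Mrps11: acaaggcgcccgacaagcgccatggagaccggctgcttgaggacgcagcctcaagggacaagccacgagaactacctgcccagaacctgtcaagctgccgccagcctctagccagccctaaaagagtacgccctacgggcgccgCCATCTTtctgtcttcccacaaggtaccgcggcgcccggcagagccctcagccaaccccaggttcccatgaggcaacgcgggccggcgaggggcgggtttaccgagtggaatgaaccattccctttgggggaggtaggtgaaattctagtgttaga
Mrpl32: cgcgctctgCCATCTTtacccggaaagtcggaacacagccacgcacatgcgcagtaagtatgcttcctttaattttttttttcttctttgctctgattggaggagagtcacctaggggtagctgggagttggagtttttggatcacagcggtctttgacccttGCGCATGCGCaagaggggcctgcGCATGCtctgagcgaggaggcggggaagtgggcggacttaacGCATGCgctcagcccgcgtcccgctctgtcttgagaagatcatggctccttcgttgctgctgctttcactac
Mrpl52: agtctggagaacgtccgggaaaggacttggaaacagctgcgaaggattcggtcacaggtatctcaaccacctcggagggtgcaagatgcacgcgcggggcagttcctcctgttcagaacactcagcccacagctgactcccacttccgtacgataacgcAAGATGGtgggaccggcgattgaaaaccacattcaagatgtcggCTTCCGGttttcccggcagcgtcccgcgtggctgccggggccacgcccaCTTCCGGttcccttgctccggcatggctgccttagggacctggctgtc

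The ETS letters stood in 34.2% of the member promoters, in 16.5% of the promoters of all tested genes and in 8.86% of all 32851 mouse promoters in the table. The YY1 letters stood in 17.8% of member promoters, 6.82% of those of tested genes and 6.34% of all. For the long NRF1 site the shares were 4.11%, 1.95% and 0.971%, for its core, which the long site contains, 12.3%, 9.45% and 7.93%, and for the E box 9.59%, 9.69% and 7.15%. These are shares of promoter entries, and 3 members have 2 or more entries, each counted. The entries of Mrpl2 overlap, and all of them hold the E box letters. The ETS letters were in 34.8% of 66 promoters of members that fell and in 2 of the 7 promoters of members that were not called, and the YY1 letters in 15.2% of the former and in 3 of the latter. Mrps22 carries the ETS letters 11 bases before its start and Mrpl52, which was not called, carries them 47 bases before its start. These are matches of letters, not measured binding. Mrps11 and Mrpl46 start 42 bases apart on opposite strands of chromosome 7, and their promoter windows share 141 bases.

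At day 14, transcripts of the mitochondrial ribosome were lower than in control cells across both subunits. By limma with Benjamini-Hochberg adjustment over all tested genes, called here when the adjusted p was under 0.05, 42 of 47 large subunit genes and 25 of 29 small subunit genes fell and 0 rose. In the same comparison 52.4% of all tested genes were called, with 34.1% of all tested genes lower and 18.3% higher. The median log2 change was -0.48 in each subunit, a level 28.2% lower for the large and 28.3% lower for the small subunit, against a median of -0.06 over all tested genes. The fall was moderate in size: 22 members were lower by over 1.5-fold, which 9.32% of all tested genes were, and 1 by over 2-fold. The day 14 arrays lay wholly below the controls in 66 members, where 37.3% of tested genes did, and wholly above them in 1, Mrps30, where 20.8% did. Because these are bulk samples, fewer cells of a type and less RNA per cell cannot be told apart.

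**Figure D1:**
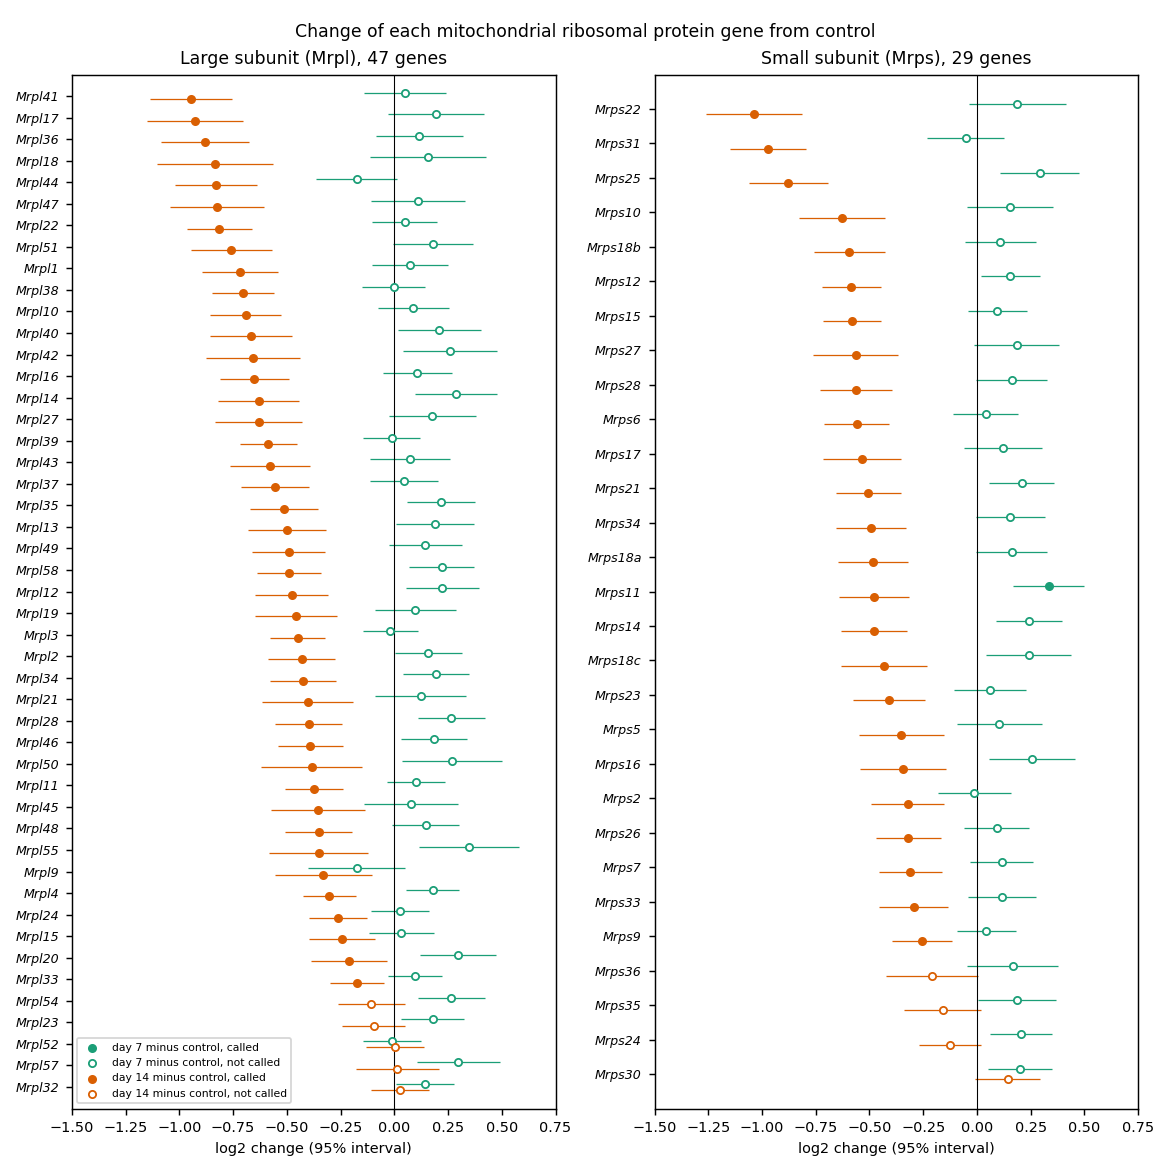
Log2 change of each gene at day 7 (green) and day 14 (orange) against control with its 95% interval, for the large subunit on the left and the small subunit on the right, ordered by the change at day 14; filled points passed the test. At day 14, 67 of 76 genes lie below 0 with filled points, while at day 7 only Mrps11 has a filled point, above 0.

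The medians of single arrays separated the 3 groups. Relative to the control mean, the median over the large subunit genes was 0.01, 0.07 and -0.09 on the log2 scale in the 3 control arrays, 0.11, 0.17 and 0.15 at day 7, and -0.60, -0.49 and -0.39 at day 14. The small subunit gave 0.01, 0.09 and -0.09 in controls, 0.13, 0.16 and 0.16 at day 7, and -0.55, -0.49 and -0.40 at day 14. By this median every day 14 array lay below every control array, and every day 7 array above, for both subunits, whereas the median over all tested genes stayed between -0.08 and 0.02. Of the 76 members, 65 had all day 14 arrays below all 6 others, as 32% of all tested genes did. The replicate SD of a member's log2 value had a median of 0.09 in controls, 0.05 at day 7 and 0.10 at day 14.

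**Figure D2:**
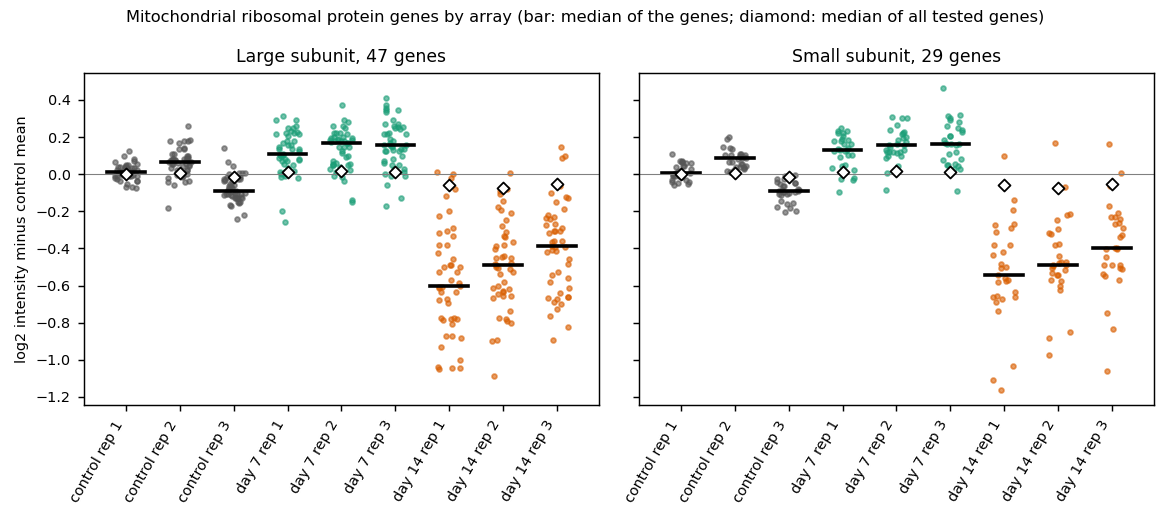
Log2 intensity minus the control mean (vertical axis) of each large (left) and small (right) subunit gene in each of the 9 arrays; each point is a gene, the bar is the median of the genes and the diamond the median of all tested genes. The day 14 bars lie between -0.60 and -0.39 and the day 7 bars between 0.11 and 0.17, while the diamonds stay near 0.

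The arrays were not alike within groups. Control replicate 3 was the lowest control array for 65 of the 76 members, which it was for 40.5% of all tested genes, and control replicate 2 was the highest for 56. At day 14, replicate 1 was the lowest array and replicate 3 the highest for 56 members each. For the counts of 56 the share over all tested genes was not computed. Control replicate 1 stood apart in the erythroid markers, whose summed intensity was 1646 there against 827 and 812 in the other controls and 932 to 1066 in the leukemic groups, with the hemoglobin gene Hba-a1 under the detection filter in every array. Without that array 38 large and 25 small subunit genes were called at day 14 in place of 42 and 25, and 46.4% of all tested genes in place of 52.4%. Without control replicate 3 the median change at day 7 was 0.09 for the large and 0.10 for the small subunit, against 0.14 and 0.16 with it.

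Among the small subunit genes, the 3 farthest falls were those of Mrps22, Mrps31 and Mrps25, all proteins that bacterial ribosomes lack. Mrps22, in which mutations are known to cause human mitochondrial disease, read 264, 306 and 235 in the control arrays, 302, 310.5 and 299 at day 7 and 119, 145 and 128 at day 14. Every day 14 array was under the lowest of the other 6 by a wide gap, and the mean fell from 268 ± 35.9 to 130.5 ± 13 (SD, n = 3), 2.05-fold lower (log2 change -1.04, SE 0.10, adjusted p 3.7e-05). Mrps31, another protein of this kind, had intensities of 198, 216 and 198 in the control arrays, 190.2, 192 and 207 at day 7 and 94.3, 104 and 114 at day 14. Its control and day 7 arrays overlapped, and day 14 lay below both (log2 change -0.97, SE 0.08, adjusted p 1.5e-05). Mrps25 gave 227, 249 and 219 in the control arrays, 274, 286 and 288 at day 7 and 113, 128 and 137 at day 14. Here the 3 groups separated fully, with day 7 on top, and the change from control was -0.88 at day 14 (SE 0.08, adjusted p 3.0e-05). Mrps10, a protein of the small subunit's head with a bacterial counterpart, read 289, 337 and 265 in the control arrays, 323, 323 and 341 at day 7 and 177, 199 and 199 at day 14 and fell by 0.63 on the log2 scale at day 14 (adjusted p 3.2e-04), again with no overlap between day 14 and the rest.

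In the large subunit, Mrpl41, a protein that bacterial ribosomes lack, read 494, 589.6 and 477 in the control arrays, 539, 553 and 519 at day 7 and 251, 278 and 279 at day 14. The day 14 arrays were 1.93-fold lower than control (log2 change -0.95, SE 0.09, adjusted p 2.6e-05), and the day 7 arrays lay within the control range. Mrpl17, whose bacterial counterpart sits near the exit tunnel, read 470.0, 553 and 446 in the control arrays, 535, 554 and 588 at day 7 and 255, 229 and 288 at day 14. Its day 14 values overlapped neither other group (log2 change -0.93, SE 0.10, adjusted p 6.7e-05), but this call rests on 1 of its 3 probe sets: the other 2, with mean intensities of 13.7 and 17.9, gave 0.29 and 0.35 at day 14 and did not pass the test, and the mean over all 3 was -0.09 (adjusted p 0.40). Mrpl36, a small protein with a bacterial counterpart, read 223, 257 and 209 in the control arrays, 246, 247 and 250.03 at day 7 and 111, 134 and 129 at day 14, with every day 14 array under every other (log2 change -0.88, SE 0.09, adjusted p 5.3e-05). Mrpl18, which binds RNA in the central protuberance, the crown of the large subunit, read 556, 674 and 477 in the control arrays, 615, 637 and 634 at day 7 and 275, 338 and 340.4 at day 14. Its control arrays were spread widely, yet the day 14 arrays stayed below all of them (log2 change -0.83, SE 0.12, adjusted p 3.6e-04).

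**Figure D3:**
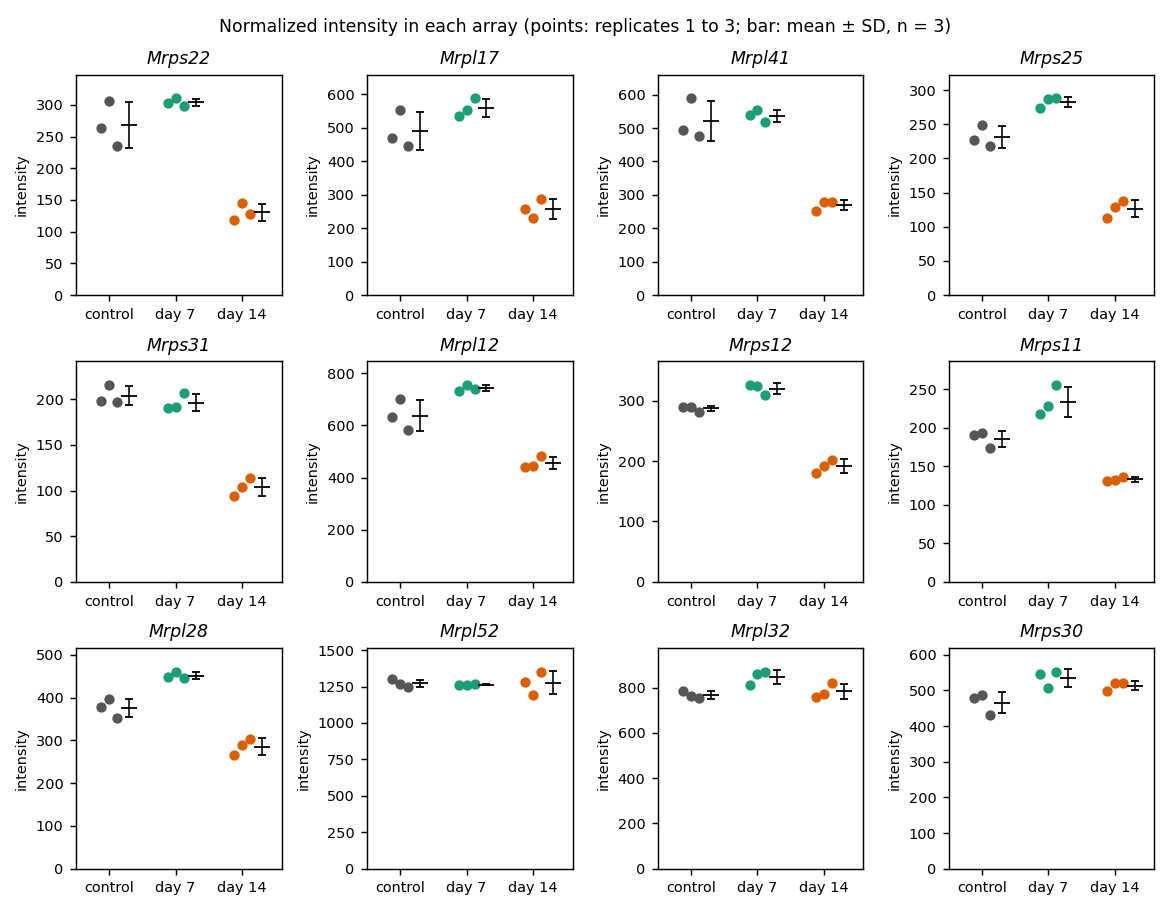
Normalized intensity (vertical axis, linear, from 0) of 12 members in the 3 control, 3 day 7 and 3 day 14 arrays; points are arrays and the bars beside them the mean ± SD. Mrps22, Mrpl17, Mrpl41, Mrps25, Mrps31, Mrpl12, Mrps12, Mrps11 and Mrpl28 have all day 14 points below the other groups, while Mrpl52, Mrpl32 and Mrps30 do not.

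The fall was spread over the parts of the ribosome. The groups that follow were drawn from the known structure after the values had been seen, so they are given as counts and medians at day 14, beside the 34.1% of all tested genes that were called lower. In the stalk, which recruits translation factors, 3 of 3 genes fell (Mrpl10, Mrpl11 and Mrpl12; median -0.48), and around the peptidyl transferase region 3 of 3 did (Mrpl2, Mrpl3 and Mrpl16; -0.45). At the exit tunnel 6 of 7 fell, with a median of -0.59 and a range of -0.83 to -0.10. Mrpl44, Mrpl47 and Mrpl22 made up the lower end of this group and Mrpl23 was not called. Mrpl17 (-0.93), whose bacterial counterpart sits near the tunnel, was not counted here but among the remaining proteins with a bacterial counterpart. In the central protuberance 9 of 9 fell, from -0.83 for Mrpl18 to -0.17 for Mrpl33. The remaining large subunit proteins with a bacterial counterpart gave 13 of 14 (median -0.41), and those without gave 8 of 11 (median -0.49).

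In the small subunit, 4 of 5 genes of the head fell (median -0.31), 5 of 5 of the body (-0.35), 5 of 5 of the platform (-0.50) and 10 of 11 of the proteins added in mitochondria (-0.56, range -1.04 to -0.16). Of the 3 genes with an Mrps symbol that are placed elsewhere (Mrps18a, Mrps30 and Mrps36) 1 fell, Mrps18a, and the median was -0.21. Of 44 with a bacterial counterpart 41 fell, with a median of -0.45, and of 32 without one 26 fell, with a median of -0.49. Pearson's r over the 76 members between control log2 intensity and the change at day 14 was 0.18, a description across genes that share the same arrays. The changes still differed among members by more than their errors, with an SD of 0.25 over the members at day 14 against a median SE of 0.07.

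Mrpl12, the stalk protein that contacts translation factors, read 632, 699.6 and 581 in the control arrays, 733, 755 and 740.0 at day 7 and 441, 446 and 484 at day 14. The 3 groups did not overlap, with day 7 highest and day 14 lowest, and the change at day 14 was -0.48 (SE 0.08, adjusted p 5.7e-04). Mrps12, at the site where codons are read, read 289.9, 289 and 282 in the control arrays, 326, 323 and 309 at day 7 and 180.3, 192 and 202 at day 14. It showed the same order without overlap and fell by 0.58 at day 14 (SE 0.06, adjusted p 5.8e-05). Other members named by their place in the list of levels followed: Mrpl39 changed by -0.59, Mrpl24 by -0.26, Mrps14 by -0.48, Mrps33 by -0.29, Mrps27 by -0.56, Mrpl1 by -0.72 and Mrpl38 by -0.70 at day 14, all called lower.

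The Mrps18 symbol covers 3 related proteins that take different places. Mrps18c, the counterpart of the bacterial protein on the platform, read 731, 764 and 605 in the control arrays, 794, 823 and 852 at day 7 and 499, 502 and 550.3 at day 14. Mrps18b, elsewhere in the small subunit, read 211, 230.2 and 199 in the control arrays, 227, 230.4 and 232 at day 7 and 132, 140.4 and 152 at day 14. Mrps18a, which mammalian structures place in the large subunit, read 399, 402 and 389.5 in the control arrays, 426, 455 and 450.1 at day 7 and 265, 272 and 316 at day 14. In each of the 3 genes the day 14 arrays lay below all others, with log2 changes of -0.43 (adjusted p 0.0026), -0.59 (adjusted p 1.4e-04) and -0.48 (adjusted p 4.7e-04).

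Of the 76 members, 9 did not pass the test at day 14: Mrpl23, Mrpl32, Mrpl52, Mrpl54, Mrpl57, Mrps24, Mrps30, Mrps35 and Mrps36. Mrps30, which despite its symbol is a large subunit protein in mammalian structures, read 479, 486 and 431 in the control arrays, 546, 506 and 552 at day 7 and 498, 522 and 520.4 at day 14. Its day 14 arrays were the only ones of any member to lie wholly above the controls, by 0.14 (95% interval -0.01 to 0.29, adjusted p 0.10). With the arrays brought to the same 75th percentile that difference was 0.26 (adjusted p 0.0088), and with quantile normalization 0.19 (adjusted p 0.031). Mrps36, which is now known as a subunit of the 2-oxoglutarate dehydrogenase complex rather than of the ribosome, read 225, 226 and 210.3 in the control arrays, 242, 245 and 254 at day 7 and 165, 189.6 and 221 at day 14, with 1 day 14 array inside the control range (-0.21, adjusted p 0.091). Without that array, day 14 replicate 3, Mrps36 was called lower, at -0.32 (adjusted p 0.0095).

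Mrpl52, a large subunit protein that bacteria lack, read 1299, 1267 and 1249.7 in controls, 1261, 1264 and 1265 in day 7 arrays and 1284, 1195 and 1350.4 in day 14 arrays. The groups overlapped, and the interval of the change at day 14, -0.13 to 0.14, excludes the median fall of its subunit. Mrpl32, a large subunit protein that the protease of the inner membrane is known to trim before assembly, read 786, 763 and 754 in controls, 811, 861 and 869.5 in day 7 arrays and 756, 770.3 and 823 in day 14 arrays. Of its day 14 arrays 2 lay within the control range and 1 above it, with an interval of -0.11 to 0.16. Mrpl57 read 716, 718 and 613 in controls, 847, 792 and 870.3 in day 7 arrays and 682, 633 and 753 in day 14 arrays. Its day 14 arrays overlapped the controls (0.01), but its other, dimmer probe set fell by 0.36 (adjusted p 0.0031 in a fit of every probe set). Mrpl54 gave -0.11 (adjusted p 0.22), a value that turned to 0.014 at the same 75th percentile and 0.016 after quantile normalization, and its dimmer probe set, at a mean intensity of 19.1, rose by 0.41. Mrpl23 changed by -0.10 (0.026 at the same 75th percentile), Mrps24 by -0.13 and Mrps35 by -0.16, none of them called. The other probe set of Mrps24, at a mean intensity of 409, fell by 0.26 (adjusted p 0.023 in a fit of every probe set), and the mean of both was called lower at -0.19 (adjusted p 0.021).

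The other probe sets of the members mostly went the same way, at lower signal. For 38 members, 69 further probe sets had signal, and of these 39 fell at day 14, 1 rose (that of Mrpl54) and 29 were not called. The sign matched that of the gene's main probe set in 55 of 69. Not all that were not called were dim. A probe set of Mrpl48 with a mean intensity of 288 gave -0.03, where the main one gave -0.35. A probe set of Mrps9 with a mean intensity of 317 gave -0.10, where the main one gave -0.25. The median change of the 69 was -0.28, against -0.47 for the main probe sets of the same genes. Mrpl44, an exit tunnel protein whose main probe set changed by -0.83, had 3 others at -0.99, -1.12 and -1.43, all called. Mrpl17 was the 1 member with calls in opposite directions, between day 14 and day 7, where a probe set of mean intensity 17.9 gave 0.51 and the main one -1.12.

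**Figure D4:**
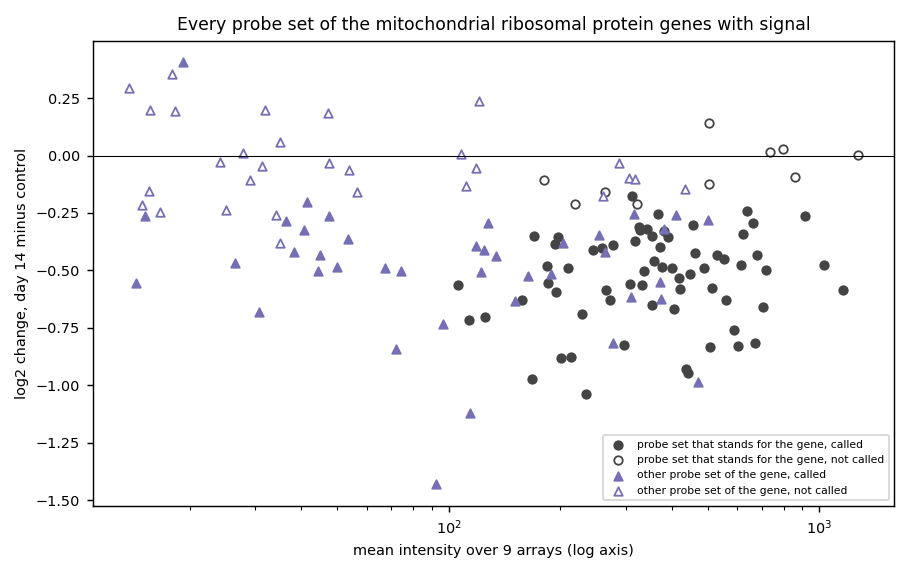
Log2 change at day 14 against control (vertical axis) by mean intensity over the 9 arrays (horizontal, log axis) for each of the 145 member probe sets with signal; circles are the probe sets that stand for the genes, triangles the others, and filled marks passed the test. Filled marks lie below 0 with the exception of 1 triangle at 0.41. Many open triangles lie at low intensity, but others, of Mrpl52, Mrps9 and Mrpl48, lie at 433, 317 and 288.

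At day 7, 1 of the 76 members passed the test against control, and it was higher. Of the large subunit genes 0 of 47 were called, and of the small subunit genes 1 of 29, while 3.34% of all tested genes were called in this comparison, 2.21% higher and 1.13% lower. The median change was 0.14 for the large subunit (range -0.18 to 0.35) and 0.16 for the small (range -0.05 to 0.33), against 0.01 for all tested genes. The estimate was above 0 in 41 of 47 large and 27 of 29 small subunit genes, which it was in 54.1% of all tested genes. The 3 day 7 arrays lay above all controls in 25 large and 16 small subunit genes, 41 of 76, against 15.2% of tested genes, and below them in 1 (Mrpl44), against 11.3%. At an unadjusted p under 0.05, 19 large and 10 small subunit genes differed, all higher, where 19.8% of tested genes differed and 12% were higher.

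The gene that passed, Mrps11 of the small subunit's platform, read 191, 193 and 174 in the control arrays, 218, 229 and 256 at day 7 and 131, 132 and 136 at day 14. The 3 groups did not overlap, and day 7 was 1.26-fold above control (log2 change 0.33, SE 0.07, adjusted p 0.042). The call is close to the threshold, and it was lost without any 1 of 7 arrays, control replicates 1 and 3, the 3 day 7 replicates and day 14 replicates 2 and 3, where the adjusted p ran from 0.058 to 0.14. The mean of its 2 probe sets gave 0.01, the other being dim at a mean intensity of 14.3. Mrpl28 had the smallest p of the large subunit and read 379, 396 and 353 in the control arrays, 449, 460.1 and 445 at day 7 and 265, 288 and 303 at day 14, with day 7 above and day 14 below control and no overlap (day 7 log2 change 0.27, SE 0.07, adjusted p 0.070). Mrpl54 followed, with 179, 183 and 159 in the control arrays, 203, 202 and 221 at day 7 and 159.6, 164 and 159 at day 14; its day 7 arrays were above all others (log2 change 0.26, SE 0.07, adjusted p 0.072). Mrpl44 went the other way, at 705, 783 and 732 in the control arrays, 619, 671 and 676 at day 7 and 370.0, 424 and 459 at day 14, with day 7 under control in all arrays (log2 change -0.18, SE 0.09, adjusted p 0.29).

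From day 7 to day 14 nearly all members fell. In this comparison 44 of 47 large and 28 of 29 small subunit genes fell and 0 rose, where 51% of all tested genes were called, 33.6% lower and 17.4% higher. The median change was -0.65 in each subunit against -0.06 for all tested genes. Mrps22 changed by -1.22 (SE 0.10, adjusted p 2.0e-05), Mrps25 by -1.17 (SE 0.08, adjusted p 1.3e-05), Mrpl17 by -1.12 (SE 0.10, adjusted p 2.5e-05) and Mrpl36 by -0.999 (SE 0.09, adjusted p 2.8e-05). Mrpl41 and Mrpl18 gave -0.998 and -0.99, and Mrps31 and Mrps11 at -0.92 and -0.81. The members not called were Mrpl9 (-0.16), Mrpl32 (-0.11, or 0.018 at the same 75th percentile), Mrpl52 (0.01) and Mrps30 (-0.06, or 0.074 at the same 75th percentile). The other probe sets of Mrpl9, at mean intensities of 309 and 124, were called lower in a limma fit of every probe set. They gave -0.42 (adjusted p 0.011) and -0.46 (adjusted p 0.012). Over the 3 groups an F-test called 73 of 76 members, all but Mrpl32, Mrpl52 and Mrps30, where it called 54.8% of tested genes. In 32 members every day 7 array was above and every day 14 array below every control array, a pattern that 6.4% of tested genes had.

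Scaling mattered for the size of these changes, since the day 14 arrays had a 75th percentile of 115 to 119 against 127 to 130 in the other 6. The median of all tested genes at day 14 was -0.06 as deposited, 0.00 after quantile normalization and 0.06 with the arrays at the same 75th percentile. The share of all tested genes called lower and higher at day 14 accordingly went from 34.1% and 18.3% to 26.8% and 22% and to 23.2% and 31.2%, and between the days from 33.6% and 17.4% to 27.1% and 21.3% and to 23.3% and 31.8%. Relative to the median of all genes, both subunits lay 0.42 lower as deposited, which scaling to a percentile leaves as it is by construction, and 0.39 (large) and 0.40 (small) lower after quantile normalization. Under the same 75th percentile 35 large and 23 small subunit genes were called at day 14, the latter including Mrps30 as higher, and under quantile normalization 37 and 25, again with Mrps30 higher.

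Other genes of mitochondrial translation, from lists chosen with earlier results known, also fell at day 14, where 34.1% of all tested genes were called lower and 18.3% higher. Of the mitochondrial ribosome proteins with other symbols 4 of 4 fell (median -0.43): Gadd45gip1, a large subunit protein, by 0.53, Chchd1 by 0.46 and Dap3, which binds GTP in the small subunit, by 0.39. Of the translation factors 9 of 13 fell and 0 rose (median -0.38), among them Tsfm, the nucleotide exchange factor for the elongation factor Tu, by 0.74, and Mtres1 and Gfm2, which act in ribosome rescue and recycling, by 0.50 each. Of the genes for assembly and ribosomal RNA modification 19 of 28 fell and 0 rose (median -0.25), led by Mrm2, a methyltransferase of the large ribosomal RNA, at -1.12, Tfb1m, which methylates the small one, at -0.77, and Ngrn at -0.70. Of the aminoacyl-tRNA synthetases 10 of 15 fell and 0 rose (median -0.34), with Pars2 at -0.80, Rars2 at -0.64 and Tars2 at -0.55.

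Upstream of translation, 18 of 20 genes for expression of mitochondrial DNA fell at day 14 and 1 rose (median -0.47), against the same 34.1% and 18.3%. Tefm, the elongation factor of mitochondrial transcription, changed by -1.23, Slirp, which stabilizes mitochondrial messenger RNA, by -1.01 and Pnpt1, an exonuclease, by -0.59, while Trmt10c, a subunit of mitochondrial RNase P, rose by 0.39. Of the regulators of nuclear genes for mitochondria 7 of 12 fell and 2 rose (median -0.28). Myc fell by 0.78, the coactivators Ppargc1a by 0.99 and Pprc1 by 0.56, while Atf4, the factor of the integrated stress response, rose by 0.91 and Yy1 by 0.19. Atf4 had also risen at day 7, by 0.38 (adjusted p 0.013). Nrf1 changed by -0.13 at day 14 (adjusted p 0.17), and 0.23 at day 7 (adjusted p 0.14). At day 7, Atf4 was the only gene called in these 6 lists, whose medians lay between -0.06 and 0.14. From day 7 to day 14 the 6 lists had 4 of 4, 8 of 13, 20 of 28, 10 of 15, 17 of 20 and 7 of 12 genes lower in the order given, with Trmt10c and Atf4 higher. Of all tested genes 33.6% were called lower and 17.4% higher between these days.

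**Figure D5:**
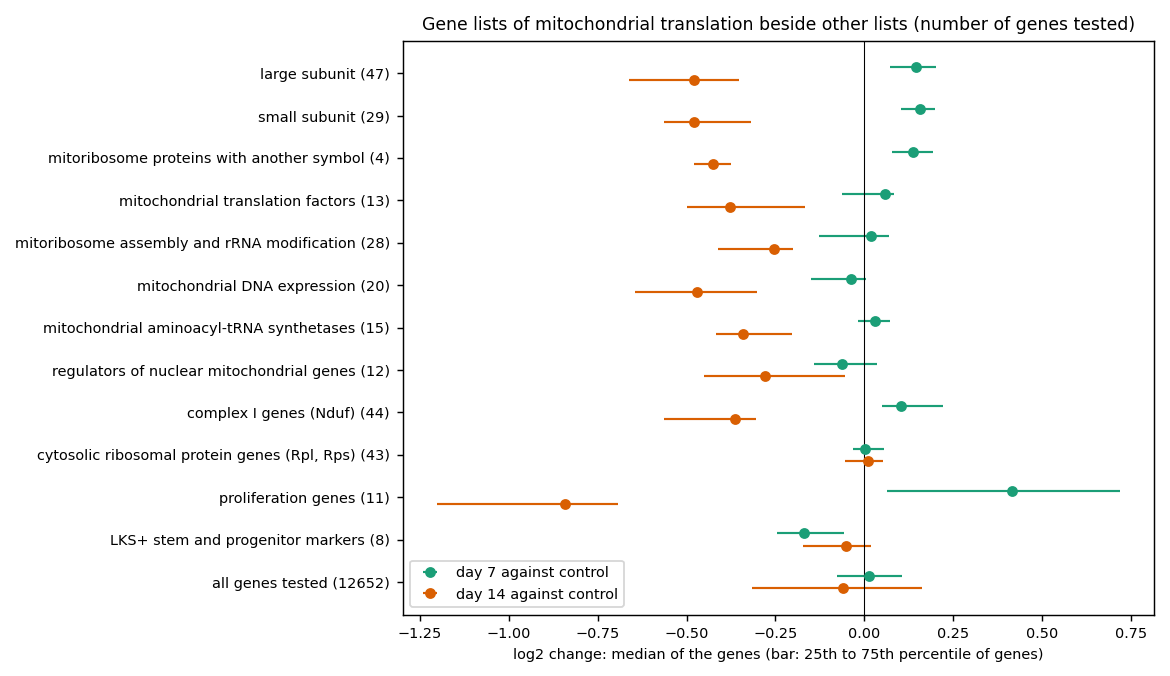
Median log2 change (points) and 25th to 75th percentile of genes (bars) of each gene list at day 7 (green) and day 14 (orange) against control, with the number of genes tested in brackets. At day 14 both subunits lie at -0.48, genes with an Nduf symbol (labelled complex I) at -0.36, proliferation genes at -0.84 and cytosolic ribosomal protein genes at 0.01.

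Few genes for ribosomal proteins of the cytosol were called. Of 43 genes tested with an Rpl or Rps symbol 5 fell and 3 rose at day 14 (median 0.01), where 34.1% of all tested genes were called lower and 18.3% higher. Among the called were Rpl14 at -0.42 and Rpl27a at 0.68. The rule by symbol also took in the related genes Rpl7l1 (-0.45), Rps4l (-0.32) and Rpl22l1 (0.23), all called. At day 7, 0 were called (median 0.00, with 5 of 43 at an unadjusted p under 0.05). Complex I, the first enzyme of the respiratory chain, holds products of mitochondrial translation. The 44 nuclear genes with an Nduf symbol take in its assembly factors and Ndufa4, now known as a subunit of complex IV. Of these 44 genes 37 fell at day 14 and 0 rose (median -0.36), with Ndufaf1 at -1.25, Ndufa4 at -0.88 and Ndufaf7 at -0.84. Between the days 40 fell (median -0.55), where 33.6% of all tested genes were called lower. At day 7 Ndufa2 alone was called in that list, higher by 0.26, and the median was 0.10. The estimate was above 0 in 40 of 44, where it was in 54.1% of all tested genes. The day 7 arrays lay above all controls in 23 and below them in 1, against 15.2% and 11.3%. By limma 18 had an unadjusted p under 0.05, all higher, where 19.8% of tested genes differed and 12% were higher.

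Genes of proliferation were called at both times. Of 11 tested, 5 rose at day 7 (median 0.42, with Birc5 by 1.13 and Top2a by 0.76), where 2.21% of all tested genes were called higher. All 11 fell at day 14 against control (median -0.84, with Cdk1 -1.39, Mcm3 -1.06 and Mcm5 -0.97) and against day 7 (median -1.33). In these comparisons 34.1% and 33.6% of all tested genes were called lower. Their summed intensity ran from 11403 to 14985 in controls, 15435 to 17210 at day 7 and 7191 to 8049 at day 14. Their part in the result was not tested.

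Markers of the sorted cells were present in all groups: 8 of 10 LKS+ genes were measured, all tested, with a summed intensity of 11377 to 11909 in controls, 10324 to 10739 at day 7 and 10661 to 11209 at day 14, and at day 14 Cd48 (-0.85) and Procr (-0.43) were lower. Megakaryocyte markers moved with day 14: 5 of 7 tested rose (median 1.30; Pf4 2.12, Gp1bb 1.73 and Vwf 1.30), with a summed intensity of 610 to 696 in controls, 761 to 818 at day 7 and 1605 to 1885 at day 14. Gp6 lay under the detection filter in every array. Their part in the result was not tested. Of the erythroid markers 1 of 5 rose at day 14 (Tfrc, by 0.31) and 0 were called lower. Their estimates ran from -1.75 to 0.43, and 2 of the 5 were below 0. Hba-a1, Alas2 and Epb42 were under the filter in all arrays. Beside these marker counts at day 14, 34.1% of all tested genes were called lower and 18.3% higher. Neutrophil markers gave 2 higher and 2 lower of 7, monocyte and macrophage markers 2 and 1 of 6, B cell markers 3 and 1 of 5, T and NK cell markers 2 and 1 of 4 (Cd3d and Cd3g under the filter) and mast cell and basophil markers 2 and 0 of 4 (Fcer1a under it) at day 14. Markers of other cell types were also called at day 7, all of them higher: Elane, a neutrophil protease (1.40), Vpreb1 (1.09) and Igll1 (0.87) of early B cells, Mcpt8 of basophils (adjusted p 0.0059) and Gp1bb of megakaryocytes (0.52). The summed intensity of the neutrophil markers was 3383 to 4062 in controls, 4009 to 4836 at day 7 and 4218 to 5446 at day 14. For the B cell markers it was 251 to 266, 296 to 358 and 319 to 392 in the same order, with Ms4a1 under the filter in every array. For the mast cell and basophil markers it was 455 to 609, 633 to 758 and 852 to 1029, and for the T and NK cell markers 747 to 870, 893 to 912 and 585 to 688. Their part in the changes of the members was not tested.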

How the data were processed

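The values are the authors' deposited normalized intensities of 45037 probe sets on a linear scale. The labels' design text names amplification over 2 cycles and normalization with Microarray Analysis Software 5.0; further steps are not given in the sources used here. Exactly equal values in several arrays occur in 51.6% of probe sets and in 3.95% of those used for members, so the scaling was varied. Of the probe sets 34945 carried 1 symbol, 932 several and 9160 none, by the platform's annotation. Intensities below the 20th percentile (5.81) were raised to it and log2 was taken. Genes above the 40th percentile of their array (14.1 to 15.2) in at least 3 arrays entered limma 3.58.1 (R 4.3.3), in 1 model over 9 arrays without covariates, two-sided, and called at a Benjamini-Hochberg adjusted p under 0.05; the steps were tested on simulated data. Arrays of a group correlated at 0.994 to 0.997.

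The members and lists were chosen with earlier results of these data known, and the structural groups after the values were seen. Members named by rule were, per comparison and subunit, the 4 largest called changes per direction without overlap of groups (with none called, the 2 smallest p). The rule also took the 3 highest and 2 lowest by control level, those with probe sets called in opposite directions, and 7 preset ones. All others were named after their values were seen. Among them are Mrpl44, Mrpl9, Mrpl46, Mrpl48, Mrps9, Mrpl2, further members of the structural groups and the other members not called. Alternatives were quantile normalization, the same 75th percentile, no floor, no filter or a filter at the 60th percentile, averaged probe sets, a replicate block, a fit of only the pair of groups compared, a prior both trended and robust, subunits by structure, and leaving out each array. For 9 members the probe set used can match related transcripts, and antisense transcripts were not looked at.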

Additional observations from a re-analysis of the deposited data

Results flagged for a closer look

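The change of the members from control differed between day 7 and day 14, as the direct comparison of the leukemic groups by limma shows, with 44 large and 28 small subunit genes lower at day 14. Among the members named in the text, the log2 difference between the days was -1.22 for Mrps22, -1.17 for Mrps25, -1.12 for Mrpl17, -0.998 for Mrpl41, -0.999 for Mrpl36, -0.99 for Mrpl18, -0.92 for Mrps31 and -0.81 for Mrps11. It was -0.74 for Mrps12, -0.70 for Mrpl12 and for Mrps18b, -0.67 for Mrps18c and -0.64 for Mrps18a. Smaller differences that still passed were -0.37 for Mrpl54 and for Mrps36, -0.35 for Mrps35, -0.33 for Mrps24, -0.28 for Mrpl57 and -0.27 for Mrpl23. In these 6 the change at day 14 against control was not called, so the difference between the days holds a day 7 value above control, which was not called either. The call of Mrpl57 between the days was lost with quantile normalization (adjusted p 0.052), the same 75th percentile (0.17), and without day 7 replicate 1 or 3 or day 14 replicate 1 or 2. Mrpl23 gave -0.14 at the same 75th percentile (adjusted p 0.11). With averaged probe sets Mrpl54 gave -0.06 (adjusted p 0.53) and Mrpl17 -0.15 (adjusted p 0.20).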

How the results depend on the processing

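The counts at day 14 against control ran over the alternatives from 35 (same 75th percentile) to 43 (subunits assigned by structure) against 42 for the large and from 23 to 26 against 25 for the small subunit, and between the days from 39 to 45 against 44 and from 26 to 28 against 28. The share of all tested genes called at day 14 ran from 34.7% without the filter to 59.1% with the stricter filter, against 52.4%. Between the days it ran from 34.2% to 58.9%, against 51%. Of 67 members called at day 14 against control, 52 were called under all 18 alternatives, and of 72 between the days 61 were. Calls gained at day 14 under at least 1 alternative were those of Mrps30, Mrpl57, Mrps24 and Mrps36, and between the days that of Mrpl9. The call of Mrps11 at day 7 was not kept: the small subunit count went from 1 to 0 with the same 75th percentile, without the filter, with averaged probe sets, with the replicate block and with only the 2 groups compared, and to 2 with the trended robust prior. The large subunit count at day 7 went from 0 to 2 with the stricter filter and to 3 with the trended robust prior. Of all tested genes 5.79% and 5.33% were called there, against 3.34%. With arrays left out in turn, the counts ran at day 7 from 0 to 2 (large; 2 without control replicate 2) and 0 to 1 (small), at day 14 from 38 (without control replicate 1) to 42 and 25 to 26, and between the days from 43 to 44 and 28 to 28. The share of all tested genes called then ran from 0.624% to 4.39% at day 7, 44.9% to 50.8% at day 14 and 43.3% to 52% between the days.

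Values near 0 changed sign. With the same 75th percentile Mrpl54 and Mrpl23 gave 0.014 and 0.026 at day 14, and Mrpl32 and Mrps30 0.018 and 0.074 between the days; with quantile normalization Mrpl54 gave 0.016. With averaged probe sets Mrpl54 gave 0.15, Mrpl57 -0.18 and Mrpl52 -0.097 at day 14, and Mrpl52 -0.048 between the days. With arrays left out, Mrpl52 ran from -0.038 to 0.050, Mrpl57 from -0.061 to 0.074 and Mrpl32 from -0.0081 to 0.052 at day 14, and Mrpl52 from -0.028 to 0.060 between the days. The cause was not tested.

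Labels share replicate numbers, but same-numbered arrays deviated together by r of -0.19 to 0.12 and others by -0.15 to 0.20. No pairing by number shows in these values, which at 3 arrays per group cannot exclude one. With the replicate block 41 large and 25 small subunit genes were called at day 14, and 44 and 28 between the days, where 50.1% and 49.5% of all tested genes were. The number of arrays, 3 per group, limits the precision.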
